A study of Mus musculus with 12 samples.

Results

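The miR-148 and miR-152 family was examined through the 3p arms of its 3 mouse members, mmu-miR-148a-3p, mmu-miR-148b-3p and mmu-miR-152-3p (without the species prefix below), among the 1915 miRNA names in the deposited table. They were picked by name as miRNAs with a common seed, and also because miR-148b-3p was known to be higher at higher RNA input before oxidation. That contrast is therefore described below without a test. The 12 libraries were small RNA libraries (17 to 40 nt) made from total RNA of the testis (C57BL/6 males, 4 months of age) with the library method that the labels call 10ng-seq. They form 6 groups of 2 technical replicates: 10, 50 and 100 ng of RNA after oxidation with sodium periodate (NaIO4), and 10, 50 and 100 ng before it. Every library also received 3 unmethylated and 3 methylated spike-in RNAs, in amounts that followed the input. The sources used here do not give the number of mice, and the replicates are technical, so p-values measure only the spread between libraries.

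Periodate oxidizes the terminal ribose of an RNA whose 3′ end carries free hydroxyl groups, and the oxidized end is a poor substrate for adapter ligation. A 2′-O-methyl group at the 3′ end, as on piRNAs, protects the RNA. Most animal miRNAs lack this group. A miRNA finds its target mRNAs mainly through its seed, bases 2 to 8 from the 5′ end. Human miR-148a, miR-148b and miR-152 have been described as repressors of DNA methyltransferase mRNAs.

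The mature sequences show what the members share and where they differ. They are given 5′ to 3′ from RefSeq on GRCm38.p6, with the seed in capitals.
miR-148a-3p: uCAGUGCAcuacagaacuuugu
miR-148b-3p: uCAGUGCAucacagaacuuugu
miR-152-3p: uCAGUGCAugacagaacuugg
All 3 carry the seed CAGUGCA, which no other mature mouse miRNA in the RefSeq table has. With positions counted from 1 at the 5′ end, miR-148a-3p and miR-148b-3p were identical at 20 of 22 positions and differed by C9U and U10C, so that both have a GC content of 40.9%. miR-152-3p is 21 bases long. It differed from miR-148a-3p by C9U, U10G and U20G, and from miR-148b-3p by C10G and U20G. The sources used here do not give how the authors treated reads that fit more than 1 member. Recovered reads of the members were whole in every library, whereas miR-199a-3p had 787.5 reads in total before oxidation. No read divided between members was thus seen. Whole reads do not show to which member a read that fits several was given, so the split between these close sequences is uncertain.

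The hairpins are shown to place both arms, which stand in capitals with the 5p arm first.
Mir148a: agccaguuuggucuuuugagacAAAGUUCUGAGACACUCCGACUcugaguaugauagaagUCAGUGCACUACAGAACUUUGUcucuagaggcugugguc
Mir148b: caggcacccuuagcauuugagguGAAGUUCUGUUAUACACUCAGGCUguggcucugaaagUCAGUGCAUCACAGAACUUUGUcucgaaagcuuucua
Mir152: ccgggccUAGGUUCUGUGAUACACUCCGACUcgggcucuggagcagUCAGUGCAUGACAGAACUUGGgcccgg
Mir148a lies at chr6:51269812-51269910 on the minus strand, where the GENCODE annotation has no other gene. Mir148b lies at chr15:103285125-103285221 on the plus strand, within introns of all 4 transcripts of Copz1 that span it. Mir152 lies at chr11:96850393-96850465 on the plus strand, within introns of the 3 transcripts of Copz2 that span it. Copz1 and Copz2 encode zeta subunits of the coatomer complex, which coats transport vesicles, and no exon of either gene overlaps the hairpin.

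The miRNA table holds RPM, reads scaled to a common library total, and the worth of 1 read was recovered from the steps of the piRNA table. The recovered totals were 1924201 to 3347004 reads after oxidation and 2578922 to 3347735 reads before it. After oxidation 625 to 937 reads per library fell on miRNAs. The labelled tissue was checked against marker miRNAs before oxidation. All 8 germ cell markers were detected, with a summed level of 29446 to 40633 RPM, and the 4 Sertoli and somatic gonad markers summed to 138 to 260 RPM. Among the germ cell markers miR-741-3p alone had 20428 to 33938 RPM, while miR-34b-5p had 11 reads in total, in 3 of 6 libraries. The 3 vessel and smooth muscle markers summed to 9004 to 13706 RPM, of which miR-143-3p alone had 8933 to 13611 RPM and miR-145a-5p 3.49 to 15.8 RPM. In contrast, 5 of 7 blood markers were detected at a sum of 2.24 to 8.43 RPM. The blood markers miR-223-3p and miR-142a-3p were at 0. The 2 pancreas and endocrine markers summed to 191 to 265 RPM, the skeletal and heart muscle markers to 57.9 to 130 RPM with miR-206-3p and miR-208a-3p at 0, the neuron markers to 4.36 to 8.43 RPM, and the liver marker miR-122-5p reached 0.305 to 6.07 RPM. In RNA of whole testis, fewer cells of a type and less RNA per cell cannot be told apart.

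After oxidation the family was nearly absent from the libraries. miR-148a-3p had 1.85 and 1.04 RPM at 10 ng, 0.349 and 1.34 RPM at 50 ng, and 1.20 and 0.316 RPM at 100 ng after oxidation. Before oxidation it had 1436 and 1520 RPM at 10 ng, 2347 and 2276 RPM at 50 ng, and 2585 and 2534 RPM at 100 ng. Every library after oxidation was far below every library before it, and each value after oxidation came from 1 to 4 reads. Averaged over the inputs, miR-148a-3p fell by 10.05 ± 0.20 (SE) on the log2(RPM + 1) scale, with an adjusted p of 2.03e-11 in limma. The addition of 1 RPM understates folds where values are this low. From pooled reads, 15 after oxidation and 37858 before, the level after oxidation was 0.0447% of that before, with an exact Poisson 95% interval of 0.0250% to 0.0737% that covers counting error only.

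miR-148b-3p showed the same separation at a lower level. It had 0.462 and 0 RPM at 10 ng, 0 and 0 RPM at 50 ng, and 0.299 and 0 RPM at 100 ng after oxidation. Before oxidation it had 26.4 and 34.1 RPM at 10 ng, 117 and 112 RPM at 50 ng, and 222 and 210 RPM at 100 ng. The values above 0 after oxidation were 1 read each, below the floor of 3 reads, which was worth 0.896 to 1.56 RPM per library before and after oxidation. miR-148b-3p fell by 6.37 ± 0.12 (SE) on the log2(RPM + 1) scale (adjusted p of 1.83e-11 in limma), a call that median centring, quantile normalization and edgeR with TMM did not keep and whose direction turned to 0.41 in DESeq2. The median of all tested miRNAs was 0.73 under DESeq2 and -6.02 in RPM, so the DESeq2 value lies below its own median. The pooled level after oxidation was 0.103% of that before, with an exact Poisson 95% interval of 0.0125% to 0.372%, from 2 reads against 2190.

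miR-152-3p was the rarest member, and its mean of 3.63 RPM over all libraries was under the minimum of 5 RPM for testing. It was at 0 RPM in 5 of 6 libraries after oxidation, and replicate 1 at 100 ng after oxidation had 1.49 RPM, from 5 reads. Before oxidation it had 4.29 and 4.72 RPM at 10 ng, 5.82 and 7.47 RPM at 50 ng, and 12.1 and 7.62 RPM at 100 ng. The highest library after oxidation was below the lowest library before it. The pooled level after oxidation was 4.48% of that before (exact Poisson 95% interval 1.45% to 10.4%), and all 5 reads behind it came from 1 library. Without that library there were 0 reads after oxidation, which allows a level of up to 4.20%. With no filter on low values, the log2(RPM + 1) difference was -2.71 ± 0.23 (SE) with an adjusted p of 2.84e-06 in limma. Median centring, which subtracts each library's median over the tested miRNAs, turned its sign, giving 3.50. The median effect over tested miRNAs was -6.02 in RPM and 0.19 after this centring, so the sign there is relative to the shared fall.

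**Figure D1:**
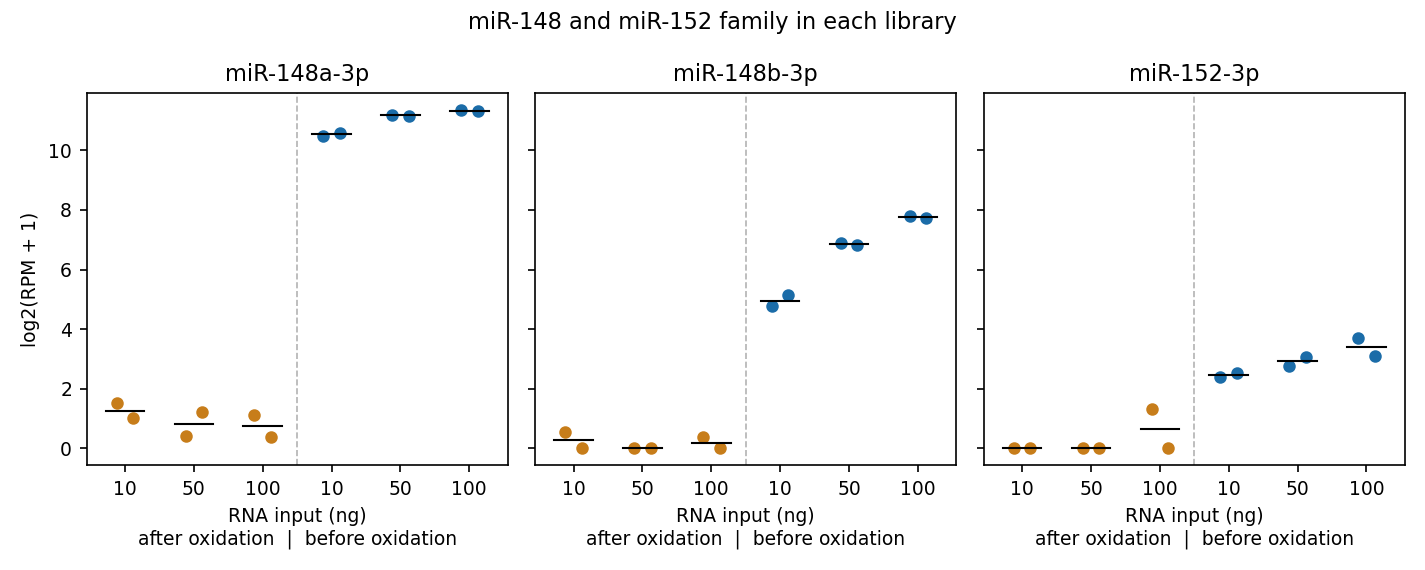
Level of each member in every library as log2(RPM + 1), with points for libraries, lines for the mean of the 2 technical replicates, and inputs of 10, 50 and 100 ng after oxidation left of those before it. For each member the highest library after oxidation lies below the lowest before it, and miR-148b-3p has the steepest climb with input before oxidation, 30.3 to 216 RPM in group means.

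The fall of both tested members was the common behaviour of miRNAs in these libraries. Of the 141 tested miRNAs, 97.2% were called lower after oxidation averaged over the inputs and 1.42% higher, at an adjusted p below 0.05 in limma. At single inputs the share called lower was 96.5% with 10 ng, 95.7% with 50 ng and 95.0% with 100 ng, and at most 1.42% were called higher (0.709% with 50 ng). miR-148a-3p ranked 7 from the lowest effect and miR-148b-3p ranked 66. As a share of the level before oxidation, 48 tested miRNAs were left with less than miR-148a-3p and 76 with less than miR-148b-3p. Both counts include the 45 that had 0 reads after oxidation, whose remaining share is not resolved. The median over tested miRNAs was 0.0907%, and all miRNAs together kept 0.228%. The median log2 effect of oxidation over tested miRNAs, averaged over inputs, was -6.02 in RPM. It was 0.19 under median centring, -0.16 under quantile normalization, -4.16 under edgeR with TMM and 0.73 under DESeq2. The settings other than RPM thus took out part or nearly all of the shared fall. How much of each lost call this accounts for was not tested.

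The spike-ins show what oxidation did to known ends. The unmethylated spike-ins together kept 0.157% of their level before oxidation, a value between those of miR-148b-3p and miR-152-3p, while the methylated spike-ins stood at 781%. All these percentages compare RPM, which is relative to the library total, so they do not give absolute loss. Per 1000 reads of methylated spike-ins, miR-148a-3p had 0.00467 to 0.0151 reads after oxidation and 132 to 195 before it. The difference between the members and the spike-ins was not tested.

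**Figure D2:**
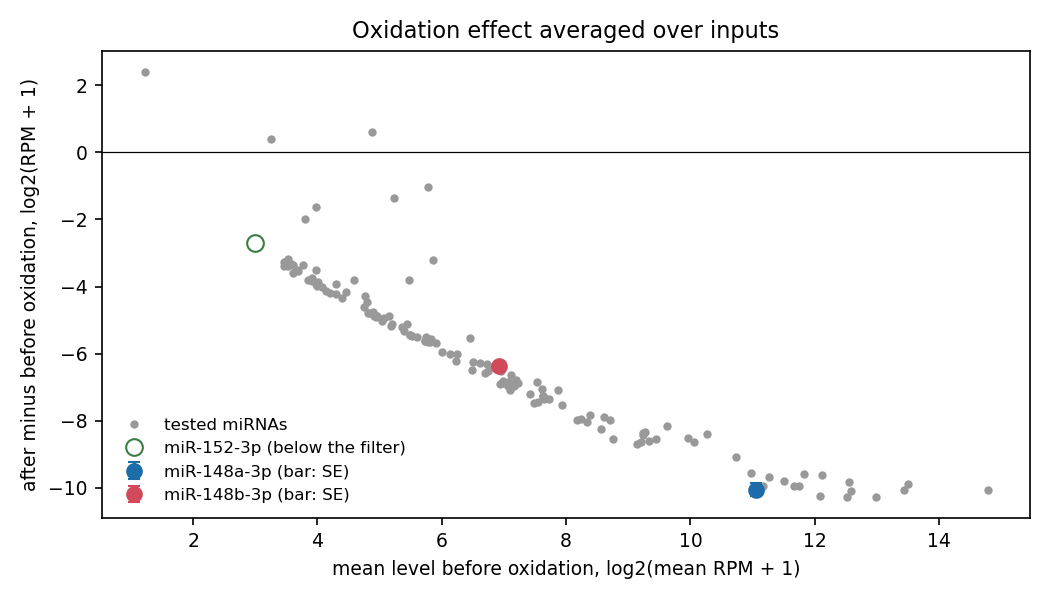
Difference after minus before oxidation, averaged over inputs and in log2(RPM + 1), against the mean level before oxidation for 141 tested miRNAs (grey), with both tested members coloured and miR-152-3p as an open circle. Most miRNAs lie along 1 band that descends with the level before oxidation, and miR-148a-3p at -10.05 and miR-148b-3p at -6.37 lie in it.

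At single inputs the differences of miR-148a-3p in log2(RPM + 1) were -9.26, -10.35 and -10.56 with 10, 50 and 100 ng (SE 0.34 each, adjusted p of 3.47e-09, 1.69e-09 and 1.49e-09 in limma). For miR-148b-3p they were -4.68, -6.85 and -7.57 (SE 0.21 each, adjusted p of 1.59e-08, 1.17e-09 and 7.30e-10 in limma). These p-values use the spread of all 12 libraries. With only the libraries of each input, the adjusted p in limma was 3.23e-05, 1.01e-04 and 6.26e-05 for miR-148a-3p. For miR-148b-3p it was 2.16e-04, 1.00e-05 and 3.13e-05. The sign of the miR-148b-3p value at 10 ng turned under median centring, quantile normalization, edgeR with TMM and DESeq2. The median 10 ng effect over tested miRNAs was -5.71 in RPM, and 0.29, -0.18, -1.40 and 0.68 under these settings in the same order. The miR-148a-3p call at 10 ng was lost under quantile normalization, edgeR with TMM and DESeq2 and that at 50 ng under DESeq2, and the miR-148b-3p calls at 50 and 100 ng were lost under quantile normalization, edgeR with TMM and DESeq2. No library after oxidation had more than 1.85 RPM of either miRNA, so the size of these differences followed mostly the level before oxidation. The few reads after it also entered. For miR-148a-3p the 10 minus 100 ng difference was -0.79 before oxidation and 0.50 after it.

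After oxidation no effect of input passed the test for either tested member. At 10 against 100 ng the log2(RPM + 1) difference was 0.50 ± 0.34 for miR-148a-3p (adjusted p of 0.771 in limma) and 0.09 ± 0.21 for miR-148b-3p (adjusted p of 1 in limma). At 50 against 100 ng it was 0.06 ± 0.34 for miR-148a-3p (adjusted p of 1) and -0.19 ± 0.21 for miR-148b-3p (adjusted p of 0.921), again in limma. Of the tested miRNAs, 1.42% were called lower and 0% higher at 10 against 100 ng, and 1.42% lower and 2.84% higher at 50 against 100 ng. At an unadjusted p below 0.05 the totals were 14 and 16 miRNAs. A difference in input was not detectable at this depth for the members.

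Before oxidation the 3 members stood in a fixed order at every input, miR-148a-3p above miR-148b-3p above miR-152-3p, with no overlap between members. miR-148a-3p ranked 16 among miRNAs by mean level before oxidation and miR-148b-3p ranked 62. miR-148a-3p made up 97.9% and 97.5% of the family's RPM with 10 ng, 95.0% and 95.0% with 50 ng, and 91.7% and 92.1% with 100 ng before oxidation. The family as a whole held 1.26% and 1.30% of miRNA RPM with 10 ng, 1.89% and 1.87% with 50 ng, and 2.08% and 1.99% with 100 ng before oxidation.

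With input before oxidation, miR-148b-3p differed most among the members, and these values are a description because the members were chosen with them known. miR-148b-3p averaged 30.3 ± 5.44 RPM at 10 ng, 114 ± 3.81 RPM at 50 ng and 216 ± 8.13 RPM at 100 ng before oxidation (SD, n = 2 each). The level at 100 ng was 7.13 times that at 10 ng and 1.89 times that at 50 ng. Behind these levels before oxidation were 74 and 94 recovered reads (10 ng), 302 and 374 reads (50 ng) and 657 and 689 reads (100 ng), and the gap between neighbouring inputs was wider than the gap between replicates at each.

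miR-148a-3p averaged 1478 ± 59.3 RPM at 10 ng, 2312 ± 50.2 RPM at 50 ng and 2560 ± 36.7 RPM at 100 ng before oxidation (SD, n = 2 each), a ratio of 1.73 between 100 and 10 ng. miR-152-3p averaged 4.50 ± 0.31 RPM at 10 ng, 6.64 ± 1.17 RPM at 50 ng and 9.88 ± 3.19 RPM at 100 ng before oxidation (SD, n = 2 each), a ratio of 2.19. For all 3 members the groups did not overlap between inputs, but for miR-152-3p the margin was narrow, with 7.47 RPM in the higher library at 50 ng and 7.62 RPM in the lower one at 100 ng. Among tested miRNAs 28.4% were also higher at each higher input without overlap, and 34.8% were called lower and 19.1% higher at 10 against 100 ng before oxidation.

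The 10 minus 100 ng difference in log2(RPM + 1) was -2.80 for miR-148b-3p, with an SE of 0.21 from all libraries and 0.156 from the libraries before oxidation alone. It was -0.79 for miR-148a-3p, with SEs of 0.34 and 0.056, and -0.95 for miR-152-3p. The value for miR-148a-3p was -0.22 per all spike-in reads, -0.41 under median centring and -0.45 under edgeR with TMM, and that for miR-152-3p was -0.49 per all spike-in reads and -0.45 with a pseudocount of 10. The median over the 141 tested miRNAs was -0.49, with quartiles of -0.90 and 0.36, and 93 were below 0. miR-148b-3p had the lowest value of all, followed by miR-93-5p at -2.22, and miR-148a-3p ranked 45. For 50 minus 100 ng the difference was -0.91 for miR-148b-3p, ranking 4 from the lowest, -0.15 for miR-148a-3p and -0.49 for miR-152-3p, against a median of -0.06. The 50 minus 100 ng value for miR-152-3p was -0.18 without replicate 1 at 100 ng and -0.79 without replicate 2, and -0.25 with a pseudocount of 10. That for miR-148a-3p ran between -0.18 and -0.02 over 13 alternatives.

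**Figure D3:**
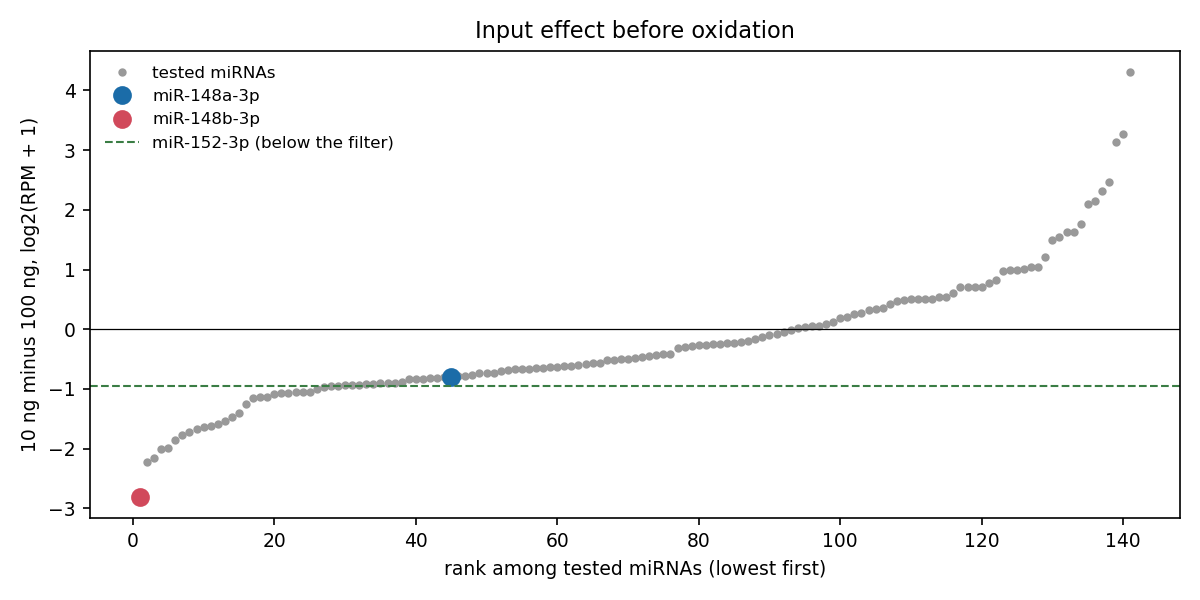
Difference between 10 and 100 ng before oxidation in log2(RPM + 1), with the 141 tested miRNAs in order of their value, both tested members coloured and the value of miR-152-3p as a dashed line. miR-148b-3p is the lowest point at -2.80, while miR-148a-3p at -0.79 and miR-152-3p at -0.95 lie nearer to the median of -0.49.

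Relative to miR-148a-3p in the same library, miR-148b-3p before oxidation gave 1.84 and 2.25 reads per 100 with 10 ng, 4.99 and 4.91 with 50 ng, and 8.57 and 8.29 with 100 ng. This ratio does not depend on the library total, and its groups did not overlap. How many other miRNAs were separated by input relative to miR-148a-3p was not counted. miR-152-3p before oxidation gave 0.299 and 0.311 reads per 100 reads of miR-148a-3p with 10 ng, 0.248 and 0.328 with 50 ng, and 0.470 and 0.301 with 100 ng, and these groups overlapped. miR-148b-3p thus shifted against miR-148a-3p with input. The ratio of miR-152-3p to miR-148a-3p did not separate beyond the spread of replicates, but it rests on 12 to 36 reads of miR-152-3p per library. Per 100 reads of miR-148b-3p, miR-152-3p gave 16.2 and 13.8 reads with 10 ng, 4.97 and 6.68 with 50 ng, and 5.48 and 3.63 with 100 ng.

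RefSeq gave a sequence for 123 of the 141 tested miRNAs, and among these 22 pairs of equal length differ at 1 or 2 bases. The gap between miR-148a-3p and miR-148b-3p in the 10 minus 100 ng difference was 2.01 in log2(RPM + 1), against a median gap of 0.49 over the 22 pairs. The 22 include this pair, which was chosen with the values of miR-148b-3p known. Most of the pairs lie within the let-7 family and share miRNAs with each other, so they are not independent. Grouped by seed instead, other families of these miRNAs were spread more widely. The spread was 3.48 among miR-125a-5p, miR-125b-5p and miR-351-5p, 3.29 among miR-92a-3p, miR-25-3p and miR-92b-3p, and 2.39 in the let-7 family. Tested miRNAs without a sequence in the table, such as miR-30d-5p with a difference of 1.75, entered no pair, so the gap was not ranked.

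The spike-ins in the same libraries were also higher at higher input. Before oxidation the unmethylated spike-ins together stood at 3.16 times and the methylated ones at 1.25 times their RPM at 10 ng in the 100 ng libraries, and single spike-ins ranged from 1.22 times (sp2Me) to 5.13 times (sp1Me). Per 1000 reads of unmethylated spike-ins, miR-148b-3p had 17.9 and 21.3 reads with 10 ng, 30.3 and 32.1 with 50 ng, and 45.3 and 43.7 with 100 ng. It remained higher at higher input without overlap, but how many tested miRNAs did so on this scale was not counted. On the same scale miR-148a-3p had 975 and 949 reads with 10 ng, 607 and 655 with 50 ng, and 528 and 528 with 100 ng, so its order turned round. Per 1000 reads of methylated spike-ins, miR-148a-3p had 132 and 147.8 reads with 10 ng, 170 and 188 with 50 ng, and 193 and 195 with 100 ng, and miR-148b-3p had 2.43 and 3.32, 8.48 and 9.22, and 16.5 and 16.2 reads at the same inputs. The direction for miR-148a-3p thus depended on which spike-ins set the scale, and that for miR-148b-3p did not. Only sp2Me had a smaller ratio of 100 to 10 ng (1.22) than miR-148a-3p (1.73). It gave 209244 of the 217192 methylated spike-in reads before oxidation. The other single spike-ins, methylated or not, ran between 2.01 (sp3Me) and 5.13 (sp1Me). The part of the spike-ins, of depth and of GC content in the input effect was not tested.

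**Figure D4:**
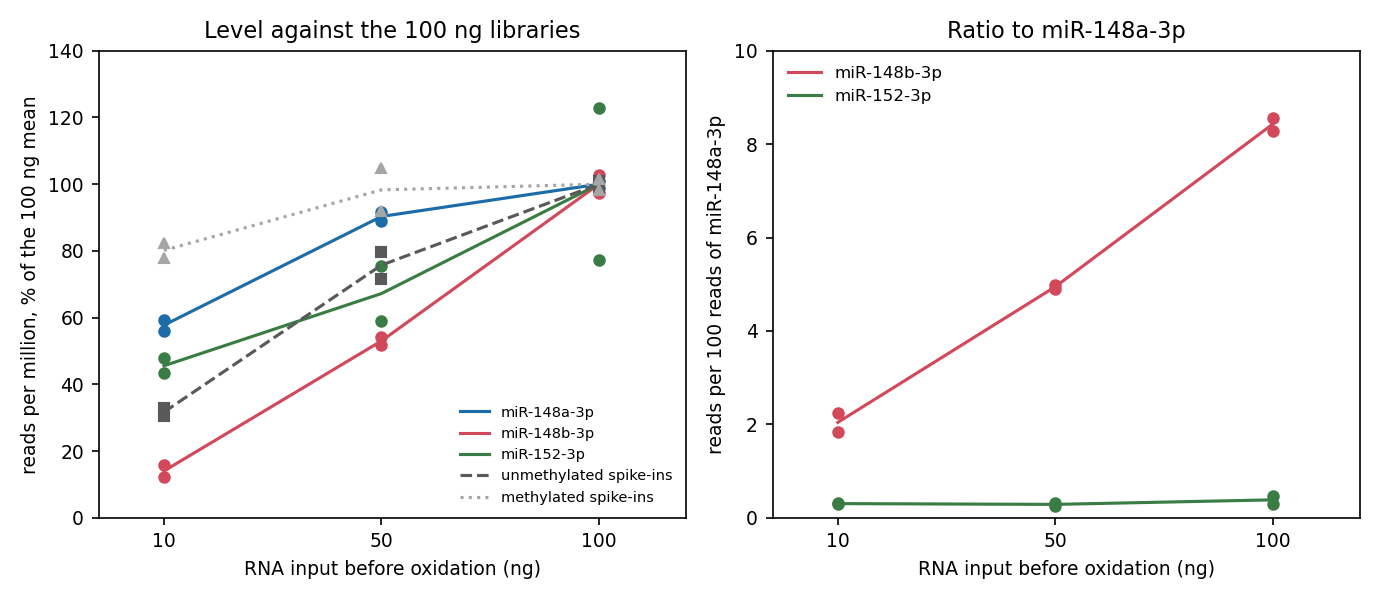
Left, level of each member and of the pooled spike-ins before oxidation as a percentage of the mean at 100 ng, by RNA input, with points for libraries and lines through the group means. Right, reads of miR-148b-3p and miR-152-3p per 100 reads of miR-148a-3p, where miR-148b-3p climbs between 1.84 and 8.57 and miR-152-3p stays between 0.248 and 0.470.

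The 5p arms were rare. Before oxidation miR-148a-5p had 39 reads against 37858 for miR-148a-3p, miR-148b-5p had 5 against 2190, and miR-152-5p had 5 against 126. The 5p arm thus made up 0.103% of the reads of Mir148a, 0.228% of those of Mir148b and 3.82% of those of Mir152, with exact binomial 95% intervals of 0.0732% to 0.141%, 0.0740% to 0.531% and 1.25% to 8.68%. After oxidation all 3 had 0 reads.

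In mean level before oxidation, miR-148a-3p stood between let-7g-5p (2297 RPM) and miR-30a-5p (2017 RPM), with let-7c-5p and miR-34c-5p next on either side. miR-148b-3p stood between miR-127-3p (121 RPM) and miR-30b-5p (110 RPM), with let-7e-5p and miR-16-5p next. miR-152-3p stood between miR-212-5p (7.12 RPM) and miR-743a-5p (6.47 RPM), with miR-145a-5p and miR-676-3p next. The neighbours were chosen by mean level over all inputs, and within an input the order differed. At 10 ng miR-148b-3p averaged 30.3 RPM, against 75.1 to 174 RPM in its 4 neighbours, and at 100 ng it averaged 216 RPM, against 85.9 to 134 RPM. miR-148a-3p averaged 1478 RPM at 10 ng, against 3465 RPM in let-7c-5p, and 2560 RPM at 100 ng, against 1684 RPM in let-7c-5p. The ratio of 100 to 10 ng was 7.13 in miR-148b-3p, against 0.494 to 1.76 in its 4 neighbours. It was 1.73 in miR-148a-3p, against 0.486 to 1.96 in its 4 neighbours, and 2.19 in miR-152-3p, against 0.717 to 2.90 in its 4.

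Over the 6 libraries before oxidation, the miRNAs with the highest Pearson correlation to miR-148a-3p were miR-30a-5p (0.996), miR-146b-5p (0.994) and miR-143-3p (0.993), out of 138 candidates. For miR-148b-3p they were miR-741-3p (0.999), miR-146b-5p (0.999) and miR-143-3p (0.997), yet the ratio of 100 to 10 ng in these was 1.49 to 1.60. For miR-152-3p they were miR-201-5p (0.921) and, with identical values, miR-199a-3p and miR-199b-3p (0.900). The points share libraries and depth, and 27 candidates had a correlation over 0.95 with miR-148a-3p and 27 with miR-148b-3p.

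Both related lists fixed for comparison had 0 reads after oxidation. Of the 5 members of the miR-130 and miR-301 family, which carry the offset seed AGUGCAA, only miR-130a-3p and miR-301a-3p were detected before oxidation, at up to 0.896 and 0.597 RPM, and none after it. In the miR-29 family, also known to act on DNA methyltransferase mRNAs, the summed level was 19.6 to 33.7 RPM before oxidation, miR-29b-3p was at 0, and none was detected after oxidation.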

How the data were processed

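The authors deposited miRNA and piRNA tables in RPM and a table of spike-in read counts, for 12 libraries. The submitters' processing notes name Bowtie and the builds mm10 and hg38, without a version or a role for either build. The sources used here do not state what the RPM values were divided by, so library totals were recovered from the step of 1 read in the piRNA table (100% of its values were whole, to within 0.01 of a read). Member reads were taken from RPM and these totals. On these totals 93.2% to 100% of the miRNA values above 0 in a library were whole.

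The log2(RPM + 1) values of the 141 miRNAs averaging 5 RPM or more were fitted to 6 group means with limma-trend (limma 3.58.1, R 4.3.3), and p-values were adjusted over these 141 by Benjamini-Hochberg at 0.05. The fit was also run on simulated counts, with changes smaller than most falls seen here. That run does not cover levels as low as those after oxidation. Alternatives used edgeR 4.0.16 and DESeq2 1.42.0 on recovered reads, other pseudocounts, filters and scalings. Named miRNAs were the members, their 5p arms, the 3 most correlated and the 2 nearest in level on each side, and fixed lists. The members and lists were chosen with earlier results of these data known. Sequences come from RefSeq and gene positions from GENCODE M21.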

Additional observations from a re-analysis of the deposited data

How the results depend on the processing

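The effect of oxidation averaged over inputs on miR-148a-3p kept its direction and call under all 12 alternatives (-12.10 to -1.32) and without any 1 library (-10.19 to -9.92). For miR-148b-3p it lost its call under median centring (-0.16, adjusted p of 0.243), quantile normalization (-0.36, 0.340) and edgeR with TMM (-3.10, 0.639) and turned under DESeq2 (0.41, 0.754), with -6.46 to -6.28 without any 1 library. At 10 ng the miR-148b-3p effect was 1.31 under median centring, 0.70 under quantile normalization, 2.305 under edgeR with TMM and 2.37 under DESeq2. For miR-152-3p it was -5.40 and -0.72 with pseudocounts of 0.1 and 10, 3.50 under median centring, -4.00 per all spike-in reads and -4.17 per methylated ones, with -2.93 to -2.49 without any 1 library; it had no value under the filter of 50 RPM, quantile normalization or the count tools.

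Before oxidation the 10 minus 100 ng difference of miR-148b-3p was -2.49 with a pseudocount of 10, -2.42 under median centring, -1.57 under quantile normalization, -2.26 and -2.51 per all and methylated spike-in reads, -2.48 under edgeR with TMM and -2.51 under DESeq2, and -2.98 to -2.63 without any 1 library. The same difference ran between -0.79 and -0.22 for miR-148a-3p and between -1.08 and -0.45 for miR-152-3p, and without any 1 library between -1.26 and -0.65 for miR-152-3p. After oxidation the 10 minus 100 ng difference of miR-148b-3p was -0.0084 and -0.0076, and the 50 minus 100 ng difference of miR-148a-3p -0.025 and -0.023, per all and methylated spike-in reads; without any 1 library they were -0.19 to 0.36 and -0.33 to 0.46.

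The number of miRNAs called lower after oxidation was 296 with no filter, 66 with a filter of 50 RPM, 60 under median centring, 46 under quantile normalization, 13 under edgeR with TMM and 8 under DESeq2, and 135 to 138 without any 1 library. The filters change how many are tested. The others take out some or most of the shared fall. At single inputs the count called lower ran between 1 and 211 with 10 ng, 0 and 231 with 50 ng, and 7 and 263 with 100 ng. Counts by input after oxidation ran between 0 and 10 in either direction. The count called higher ran between 0 and 69, and those at 10 against 100 ng before oxidation between 13 and 80 lower and 12 and 47 higher. With the replicate number as a block the averaged effects were -10.05 and -6.37 and 137 were called lower. Deviations of same-numbered libraries from their group means correlated by -0.20 to 0.18. No shared deviation by number was thus seen, which cannot show whether the numbers mark pairs. Few reads after oxidation limit all values there.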
